A study of Homo sapiens with 6 samples.

Results

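The transcripts of the mitochondrial genome were followed in HCT116 cells, an established human colorectal carcinoma line, before and after activation of the tumour suppressor p53. A gene was taken as a member when its symbol in the deposited files begins with MT-, which gave 37 of the 57905 counted genes: 13 protein-coding genes, 2 ribosomal RNA genes and 22 transfer RNA genes. The groups were cells given the vehicle DMSO (Nut 0 h) and cells given 10 µM Nutlin-3a for 1 h (Nut 1 h) or for 10 h (Nut 10 h). Nutlin-3a frees p53 from its inhibitor MDM2. All libraries came from the same cell line, each group had 2 biological replicates, and both treated groups were set against the same 2 Nut 0 h libraries. All 37 members were placed on the mitochondrial chromosome of GRCh37 (chrM, 16569 bases) by the annotation, 28 on the plus strand and 9 on the minus strand. The minus-strand members were MT-ND6 and 8 transfer RNA genes.

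Mitochondrial DNA is a small circle transcribed from both strands by a dedicated RNA polymerase, POLRMT, with the DNA-bending factor TFAM and the melting factor TFB2M. Each strand gives a long precursor that spans many genes. Transfer RNAs sit between most of the mRNAs and rRNAs, and enzymes that cut at the ends of the tRNAs release the transcripts on either side, which is known as the tRNA punctuation model. The encoded proteins are core subunits of the respiratory chain complexes I, III and IV and of the ATP synthase, while the proteins that copy, transcribe and translate the genome are imported from the cytosol. Steady levels of single transcripts depend on transcription, on cleavage and on stability, and the stability of most mRNAs depends on the LRPPRC-SLIRP complex.

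Counts per library summed to between 26068076 and 35473485. Of 7 colon epithelial markers, 6 were expressed, and VIL1 was below 1 CPM in each library. All 4 immune and 2 endothelial markers were below 1 CPM in each library, as were 4 of 5 fibroblast markers, the exception being COL1A1 at 23.8 to 42.2 CPM. The summed CPM of the epithelial markers was 4977 to 5644 in vehicle, 3518 to 3715 after 1 h and 6336 to 7308 after 10 h. KRT8 and KRT19 hold most of that sum, and EPCAM and CDH1 went the other way at Nut 1 h, with 264 to 293 CPM in vehicle and 395 to 402 after 1 h for EPCAM and 67.0 to 67.6 and 96.1 to 103 for CDH1. The library preparation (polyA selection or rRNA depletion), the strand setting of the counting and the treatment of reads that map to several places or overlap several genes are not given in the sources used here. Reads from the opposite strand, from overlapping neighbours and from nuclear copies of mitochondrial DNA therefore cannot be told apart in these counts.

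MT-TN, with the largest difference at Nut 1 h, and 3 tRNA genes that were lower lie in a cluster of tRNA genes between MT-ND2 and MT-CO1, where 4 genes on the minus strand follow each other around the origin of light-strand replication. Their sequences are shown because neighbours a few bases apart moved in opposite directions, together with MT-TE and MT-TP, the minus-strand tRNA genes that stand apart near MT-CYB. Each is given 5′ to 3′ on its own strand as read from the GRCh37 genome, with the anticodon in capitals. MT-TA (tRNA for alanine) lies at chrM:5587-5655, MT-TN (asparagine) at chrM:5657-5729, MT-TC (cysteine) at chrM:5761-5826, MT-TY (tyrosine) at chrM:5826-5891, MT-TE (glutamate) at chrM:14674-14742 and MT-TP (proline) at chrM:15956-16023, and the stretch between MT-TN and MT-TC at chrM:5730-5760. MT-TC and MT-TY share 1 base.

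MT-TA: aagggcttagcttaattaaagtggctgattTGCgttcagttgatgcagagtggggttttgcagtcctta
MT-TN: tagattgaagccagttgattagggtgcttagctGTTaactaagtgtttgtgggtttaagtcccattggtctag
between MT-TN and MT-TC: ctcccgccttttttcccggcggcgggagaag
MT-TC: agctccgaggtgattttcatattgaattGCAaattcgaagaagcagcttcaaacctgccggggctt
MT-TY: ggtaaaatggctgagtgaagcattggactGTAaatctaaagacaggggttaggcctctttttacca
MT-TE: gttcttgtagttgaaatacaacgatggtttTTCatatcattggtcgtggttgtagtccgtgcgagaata
MT-TP: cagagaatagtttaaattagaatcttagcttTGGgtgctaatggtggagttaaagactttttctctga

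Mitochondrial genes took 4.99% and 6.18% of all gene counts in vehicle, 8.44% and 8.15% after 1 h and 6.45% and 7.06% after 10 h (means 5.58% ± 0.84, 8.29% ± 0.20 and 6.76% ± 0.44; SD, n = 2). The exact 95% binomial interval in the shallowest library ran from 8.14% to 8.16%. Such intervals cover counting error only, and the replicates lay outside each other's. Both treated groups lay above both Nut 0 h libraries, and Nut 1 h lay above Nut 10 h. An exact two-sided permutation test of 2 against 2 libraries cannot give a p below 0.333, so the shares are given without a test. The make-up of these counts also differed. The rRNA genes held 20.2% and 21.3% of mitochondrial counts in vehicle, 10.4% and 10.6% after 1 h and 21.1% and 22.0% after 10 h. Without the rRNA genes the mitochondrial share was 4.48% ± 0.64, 7.49% ± 0.19 and 5.38% ± 0.31 (SD, n = 2). The tRNA genes held under 1% throughout, with means of 0.392%, 0.182% and 0.381%. Genes on the minus strand held on average 1.25% ± 0.05 in vehicle, 1.88% ± 0.17 after 1 h and 1.37% ± 0.02 after 10 h (SD, n = 2), with no overlap between these groups.

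**Figure D1:**
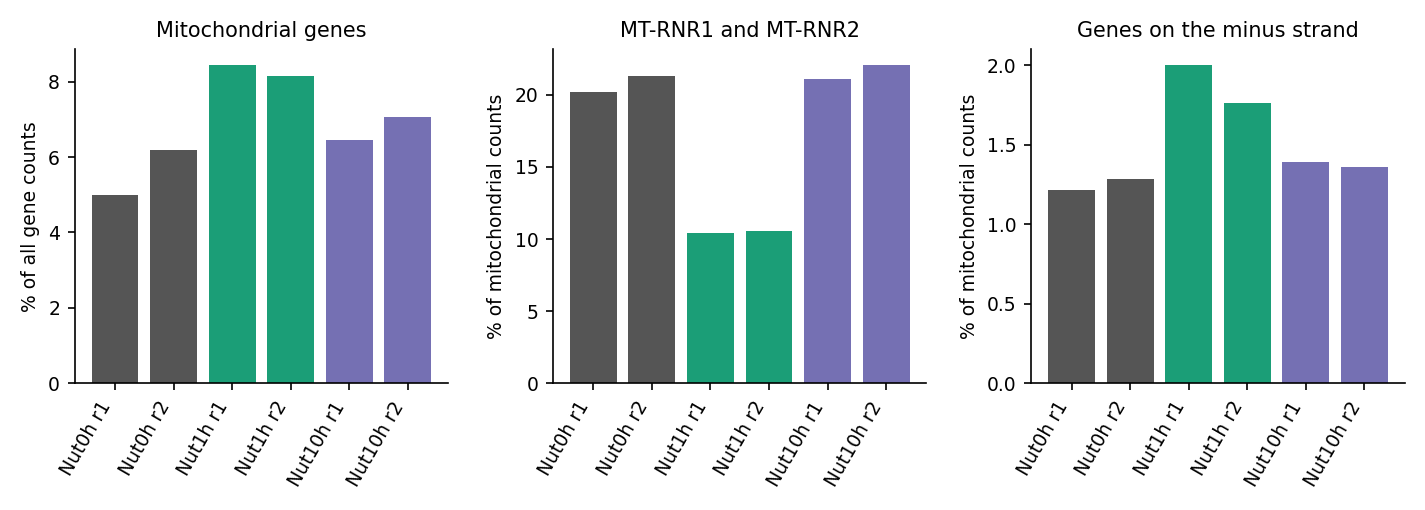
Share of counts by library, with 1 bar per replicate (r1, r2) and colours for Nut 0 h, Nut 1 h and Nut 10 h; the left panel gives mitochondrial genes as % of all gene counts, the others the rRNA genes and the minus-strand genes as % of mitochondrial counts. The Nut 1 h libraries have the highest mitochondrial share (8.44% and 8.15%) and the lowest rRNA share (10.4% and 10.6%).

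Levels were compared between genes as normalized counts per kb of gene length. At Nut 0 h the most abundant were MT-CO2, a core subunit of complex IV, at 356707 ± 39094 (SD, n = 2) and MT-CO3, another subunit of the same complex, at 275186 ± 36364. The least abundant were MT-ND5 at 46949 ± 8189 and MT-ND6, the only mRNA of the minus strand, at 32136 ± 5150. Neighbours among the genes ranked 3 to 6 (MT-RNR2, MT-ATP6, MT-CO1 and MT-ND4) overlapped over the replicates. So did MT-RNR1 with MT-ND4L, and neighbours among the genes ranked 9 to 13 (MT-ND1, MT-ND2, MT-ND3, MT-ATP8 and MT-CYB). This overlap is across libraries, while the genes were measured in the same libraries. Within each Nut 0 h library MT-RNR2 lay above MT-ATP6 and MT-ATP6 above MT-CO1. The same held for MT-ND1 above MT-ND2 and for MT-ATP8 above MT-CYB. The other overlapping neighbours changed order between the libraries. Genes further apart in the order can be free of overlap, with MT-RNR2 (157718 and 193305) above MT-ND4 (142819 and 156876). Likewise MT-ND1 (88257 and 101035) lay above MT-CYB (68977 and 77923). The order at Nut 10 h had the same genes at ranks 1 to 4. At Nut 1 h MT-CO3 came first at 405540 ± 6068, ahead of MT-CO2 at 368208 ± 20326 and MT-ATP6 at 357089 ± 983, which overlapped each other. MT-RNR1 was last at Nut 1 h, at 50447 ± 1125, and 7th at Nut 0 h and Nut 10 h. These levels stand on counts that share bases between neighbours, 46 bases between MT-ATP8 and MT-ATP6 and 7 between MT-ND4L and MT-ND4.

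**Figure D2:**
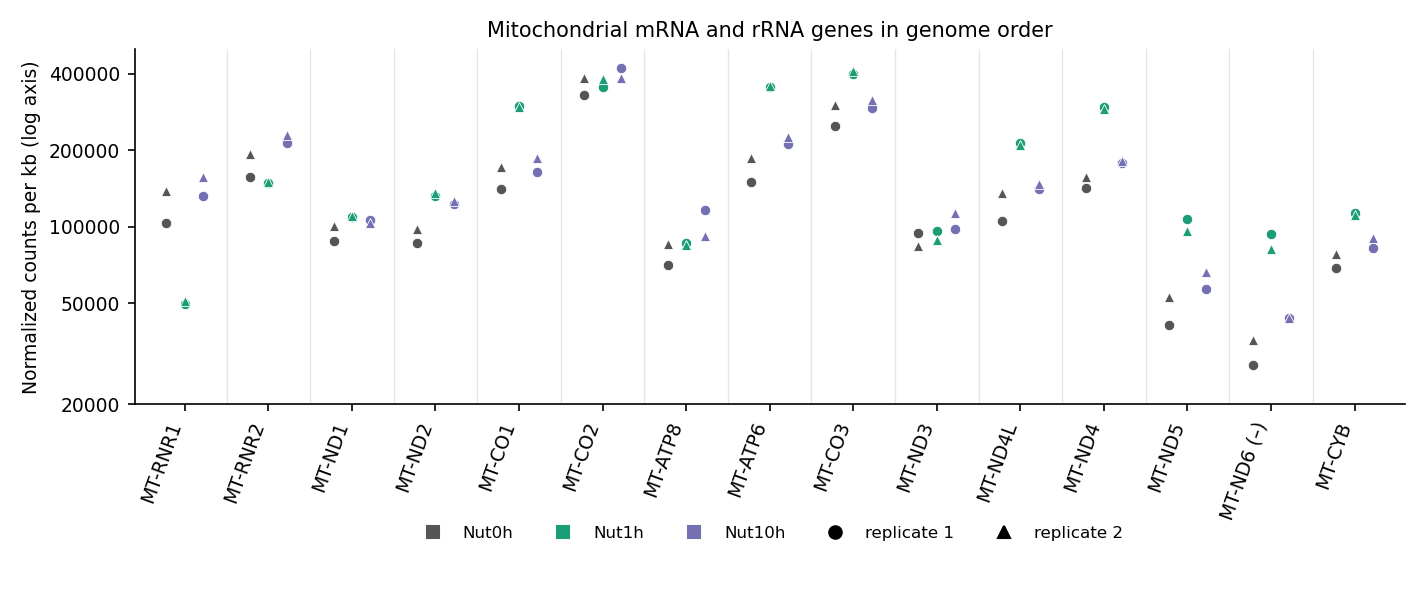
Normalized counts per kb (log axis) of the 13 mRNA and 2 rRNA genes in genome order; colours stand for the time points, circles and triangles for replicates 1 and 2, and (–) for the minus strand. MT-RNR1 is lowest at Nut 1 h, while MT-CO1, MT-ATP6, MT-ND4, MT-ND5 and MT-ND6 are highest there, with no overlap between Nut 0 h and Nut 1 h.

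After 1 h of Nutlin-3a most mitochondrial mRNAs were higher than in vehicle, the small rRNA was lower, and single tRNA genes moved far in either direction. By the quasi-likelihood test of edgeR, adjusted over all genes and called at an adjusted p of at most 0.05, 9 of 13 mRNA genes rose and none fell, while MT-RNR1 fell and MT-RNR2 did not pass. Of all 16565 genes tested in this comparison 66.9% passed, 34.5% higher and 32.3% lower, so the 10 of 15 mRNA and rRNA genes that passed are close to the share of all genes. Changes are given throughout as log2 fold changes. Their median was 0.62 over the mRNAs and 0.05 over all genes. Fold changes at Nut 1 h followed GC content across the transcriptome: 63.8% of tested genes with 40 to 45% GC rose (median log2 fold change 0.51) and 33.8% with 45 to 50% GC (median 0.18), against 0.617% of genes above 60% GC (median -1.12). The mRNA genes have 39.6 to 47.7% GC. With a GC-content offset per library, under which 45.3% of all genes passed, 8 of 13 mRNA genes rose and 2 fell (MT-ATP8 and MT-ND3), both rRNA genes fell, and the median of the mRNAs was 0.32. The part of the GC trend in the values of single members was not tested.

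After 10 h the differences from vehicle were small. Of the mRNA and rRNA genes 6 rose and none fell, the highest log2 fold change being 0.45, while 29% of all genes passed, 14.1% higher and 14.9% lower. At an unadjusted p under 0.05, 10 of the 15 were higher and 0 lower. The share of all genes at that threshold is not given here, so this count is not read as particular to the members. DESeq2 also called none lower. All 6 calls rested on replicate 1 of Nut 0 h, the library with the smallest mitochondrial share (4.99%): without it none of the 15 passed. The calls of MT-RNR2, MT-ATP8, MT-ATP6 and MT-ND5 were also lost when certain single libraries of Nut 1 h or Nut 10 h were left out. Median log2 fold changes over the GC bands lay between -0.08 and 0.04 at Nut 10 h. Between Nut 1 h and Nut 10 h both rRNA genes rose and 8 of 13 mRNA genes fell, where 67.9% of all genes passed, 34.2% higher and 33.7% lower. With the GC-content offset, under which 57.8% of all genes passed, 4 mRNA genes rose and 5 fell in that comparison.

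**Figure D3:**
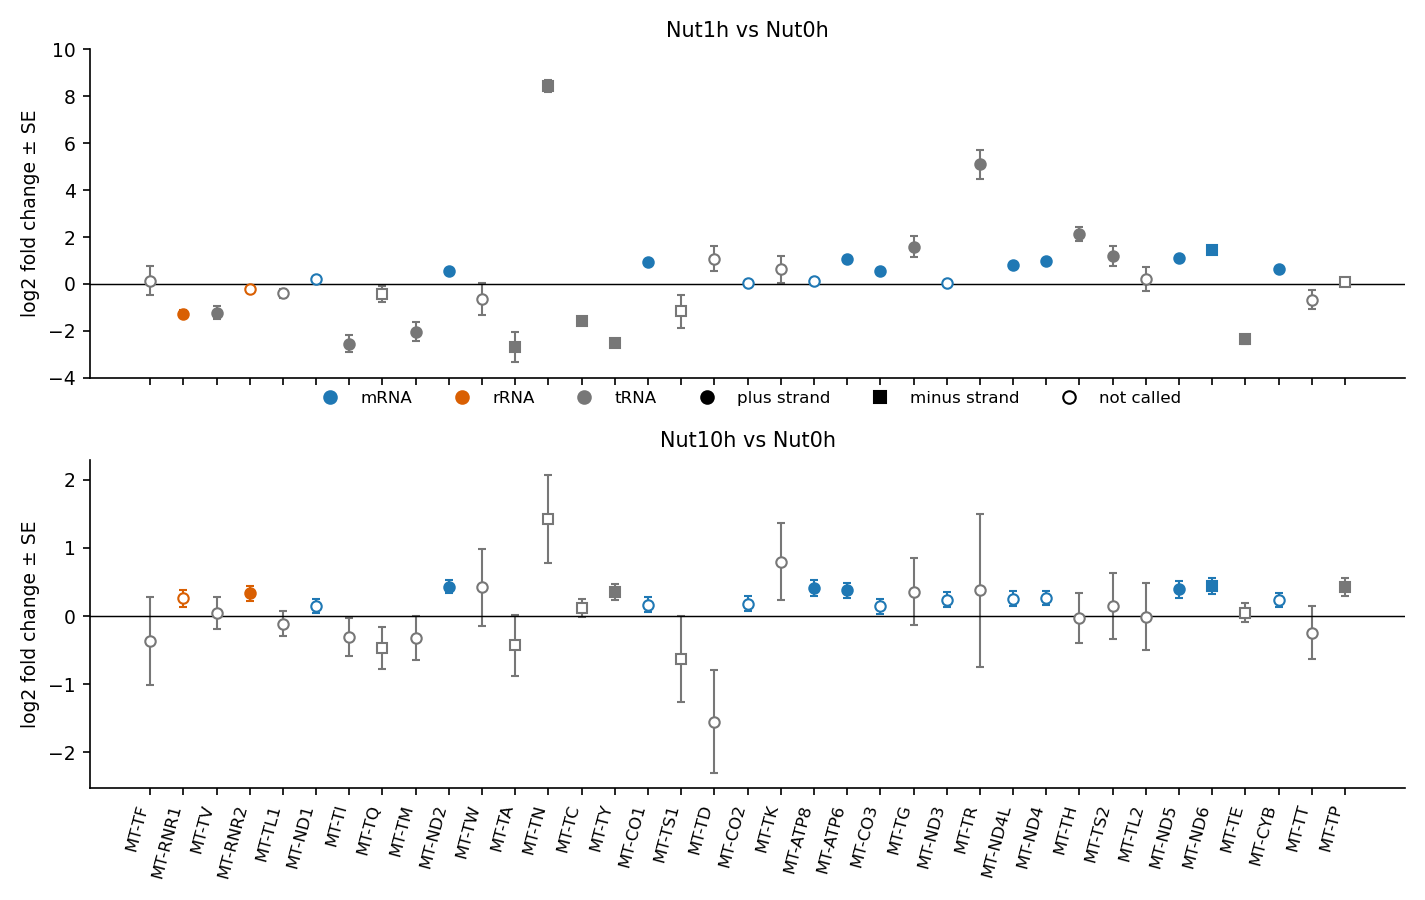
Log2 fold changes ± SE (edgeR) of all 37 members in genome order, Nut 1 h (upper) and Nut 10 h (lower) against the same Nut 0 h libraries; colours give the gene class, squares the minus strand, and open symbols genes not called at an adjusted p of 0.05. At Nut 1 h MT-TN (8.43) and MT-TR (5.10) lie far above and MT-TA (-2.69) lowest. At Nut 10 h no mRNA or rRNA gene passes 0.45. Filled symbols of MT-TN, MT-TR, MT-TA, MT-TI, MT-TM and MT-TG are not read as calls, since these genes are given as descriptions.

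Both rRNA genes lie at the start of the plus-strand precursor. MT-RNR1 (chrM:648-1601) encodes the 12S rRNA of the small subunit of the mitochondrial ribosome. Its normalized counts were 98748 and 132115 in vehicle, 47367 and 48885 after 1 h and 126524 and 149515 after 10 h. The Nut 1 h libraries lay below all others, with no overlap. The log2 fold change was -1.26 ± 0.13 (SE, edgeR adjusted p = 2.04e-06) at Nut 1 h, a 2.4-fold fall that was called under all 17 alternatives tried, with values from -1.59 to -1.05. After 10 h the value was 0.26 ± 0.13 (SE, edgeR adjusted p = 0.159). MT-RNR2 (chrM:1671-3229) encodes the 16S rRNA of the large subunit. Its normalized counts were 245882 and 301363 in vehicle, 232944 and 233348 after 1 h and 333089 and 357164 after 10 h. The Nut 1 h libraries were below all others here too, but by little, the log2 fold change being -0.23 ± 0.11 (SE, edgeR adjusted p = 0.0823). Without replicate 1 of Nut 0 h the value was -0.38 (adjusted p = 0.00861), without replicate 2 of Nut 0 h it was -0.09 (adjusted p = 0.551), and with the GC-content offset it was -0.74 (adjusted p = 8.04e-06). MT-RNR2 rose after 10 h, by 0.33 ± 0.11 (SE, edgeR adjusted p = 0.037). The unequal change of the neighbours showed in their ratio, which needs no scaling between libraries: MT-RNR1 had 40.2 and 43.8 counts per 100 of MT-RNR2 in vehicle, 20.3 and 20.9 after 1 h and 38.0 and 41.9 after 10 h. MT-TV (valine), which lies between them at chrM:1602-1670, had counts of 132 and 255 in vehicle, 74 and 67 after 1 h and 173 and 227 after 10 h, also lowest at Nut 1 h, the log2 fold change being -1.22 ± 0.26 (SE, edgeR adjusted p = 0.000974). That of MT-TV was -0.70 without replicate 2 of Nut 0 h and -1.61 without replicate 1 of Nut 0 h, and it stayed called.

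Complex I, the NADH dehydrogenase that feeds electrons into the respiratory chain, has 7 subunits encoded here. MT-ND1 (chrM:3307-4262), the nearest mRNA to the rRNA genes, had normalized counts of 84374 and 96589 in vehicle, 104942 and 105363 after 1 h and 101413 and 99441 after 10 h. It did not pass at Nut 1 h, with 0.22 ± 0.10 (SE, edgeR adjusted p = 0.0671). MT-ND2 (chrM:4470-5511) had normalized counts of 90118 and 102589 in vehicle, 137406 and 141377 after 1 h and 127942 and 131837 after 10 h, so that both treated groups lay above Nut 0 h. It rose by 0.53 ± 0.10 (SE, edgeR adjusted p = 0.000308) at Nut 1 h and by 0.43 ± 0.10 (SE, edgeR adjusted p = 0.00506) at Nut 10 h. The first of these was 0.03 (adjusted p = 0.768) and the second 0.40 (adjusted p = 0.00121) with the GC-content offset.

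MT-ND3 (chrM:10059-10404), a short mRNA with 40.2% GC, had normalized counts of 32630 and 29076 in vehicle, 33306 and 30624 after 1 h and 33874 and 39094 after 10 h, with the groups overlapping at Nut 0 h and Nut 1 h. It had 0.05 ± 0.10 (SE, edgeR adjusted p = 0.683) at Nut 1 h, and -0.60 (adjusted p = 2.87e-05) with the GC-content offset. MT-ND4L (chrM:10470-10766) and MT-ND4 (chrM:10760-12137) are carried on 1 bicistronic mRNA. MT-ND4L had normalized counts of 31248 and 40395 in vehicle, 63504 and 62273 after 1 h and 41677 and 43827 after 10 h. MT-ND4 had normalized counts of 196804 and 216175 in vehicle, 409836 and 402109 after 1 h and 245457 and 250356 after 10 h. Both were highest in the Nut 1 h libraries, with log2 fold changes of 0.81 ± 0.12 (SE, edgeR adjusted p = 2.89e-05) and 0.98 ± 0.10 (SE, edgeR adjusted p = 1.61e-06). Their lowest values over the alternatives tried were 0.32 and 0.56. Neither passed after 10 h, with 0.26 ± 0.12 and 0.26 ± 0.10.

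MT-ND5 (chrM:12337-14148), the longest of the mRNAs, had normalized counts of 74579 and 95563 in vehicle, 194857 and 175248 after 1 h and 103148 and 120372 after 10 h. It rose by 1.12 ± 0.13 (SE, edgeR adjusted p = 3.92e-06) at Nut 1 h, a factor of 2.18, and by 0.39 ± 0.13 (SE, edgeR adjusted p = 0.0306) at Nut 10 h. MT-ND6 (chrM:14149-14673) lies next to it on the opposite strand. Its normalized counts were 14960 and 18783 in vehicle, 49376 and 43037 after 1 h and 22988 and 22979 after 10 h, and each Nut 1 h library was above every other library. The rise of 1.45 ± 0.12 (SE, edgeR adjusted p = 2.85e-07), a factor of 2.74, was the highest of the 15 mRNA and rRNA genes at Nut 1 h, also with the GC-content offset (0.94). The rise after 10 h was 0.45 ± 0.12 (SE, edgeR adjusted p = 0.0098). MT-ND6 had 20.1 and 19.7 counts per 100 of MT-ND5 in vehicle, 25.3 and 24.6 after 1 h and 22.3 and 19.1 after 10 h. If the counting did not use strand, reads of the long plus-strand transcripts that run across MT-ND6 are part of its counts.

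The other mRNAs encode subunits of complexes III and IV and of the ATP synthase. MT-CYB (chrM:14747-15887), cytochrome b of complex III, had normalized counts of 78702 and 88910 in vehicle, 129617 and 127539 after 1 h and 94446 and 103416 after 10 h. It rose by 0.62 ± 0.10 (SE, edgeR adjusted p = 9.87e-05) at Nut 1 h, and by 0.34 with the GC-content offset. Its value at Nut 10 h was 0.24 ± 0.10. Complex IV, the cytochrome c oxidase, has 3 subunits here that did not move alike. MT-CO1 (chrM:5904-7445) had normalized counts of 217678 and 264664 in vehicle, 459987 and 455681 after 1 h and 254353 and 287980 after 10 h. Both Nut 1 h libraries lay above all others, with a rise of 0.92 ± 0.12 (SE, edgeR adjusted p = 8.89e-06), a factor of 1.9. MT-CO2 (chrM:7586-8269) had normalized counts of 225079 and 262896 in vehicle, 242023 and 261685 after 1 h and 289333 and 264166 after 10 h, and its groups overlapped at Nut 0 h and Nut 1 h, the log2 fold change being 0.05 ± 0.11 (SE, edgeR adjusted p = 0.726). The ratio of these neighbours was 96.7 and 101 counts of MT-CO1 per 100 of MT-CO2 in vehicle, 190.1 and 174 after 1 h and 87.9 and 109 after 10 h. MT-CO3 (chrM:9207-9990) had normalized counts of 195586 and 235905 in vehicle, 314580 and 321307 after 1 h and 229353 and 246553 after 10 h. It rose by 0.56 ± 0.11 (SE, edgeR adjusted p = 0.000458) at Nut 1 h, and by 0.30 with the GC-content offset.

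The ATP synthase subunits MT-ATP8 (chrM:8366-8572) and MT-ATP6 (chrM:8527-9207) are translated from 1 shared mRNA with overlapping reading frames. MT-ATP8 had normalized counts of 14676 and 17689 in vehicle, 17826 and 17536 after 1 h and 24017 and 18975 after 10 h. MT-ATP6 had normalized counts of 102439 and 127132 in vehicle, 242704 and 243651 after 1 h and 144691 and 153868 after 10 h. Only MT-ATP6 rose at Nut 1 h, by 1.08 ± 0.11 (SE, edgeR adjusted p = 1.96e-06), while MT-ATP8 had 0.13 ± 0.12 (SE, edgeR adjusted p = 0.365) and, with the GC-content offset, -0.55 (adjusted p = 0.000877). MT-ATP8 had 14.3 and 13.9 counts per 100 of MT-ATP6 in vehicle, 7.34 and 7.20 after 1 h and 16.6 and 12.3 after 10 h. Both rose after 10 h, MT-ATP8 by 0.41 ± 0.12 (SE, edgeR adjusted p = 0.0206) and MT-ATP6 by 0.38 ± 0.11 (SE, edgeR adjusted p = 0.0207). MT-ATP8 is the shortest of the mRNA genes, 39.6% GC against 44.2% for MT-ATP6, and how a read over their shared bases was counted is not given in the sources used here.

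To compare the members with each other rather than with nuclear genes, the summed count of the 13 mRNAs was used as the scale in a further edgeR fit. The mRNAs tested make up this scale, so their rises and falls partly offset each other by construction, at either time. Small values of the abundant mRNAs are therefore not read as a lack of change. The rRNA genes are not part of the scale. On this scale both rRNA genes fell at Nut 1 h, with values of -1.95 ± 0.17 (SE, edgeR adjusted p = 1.12e-09) for MT-RNR1 and -0.92 ± 0.17 (SE, edgeR adjusted p = 3.87e-05) for MT-RNR2. Of the mRNAs, MT-ND6 (0.76), MT-ND5 (0.43) and MT-ATP6 (0.39) rose, and MT-ND3 (-0.66), MT-CO2 (-0.65), MT-ATP8 (-0.57) and MT-ND1 (-0.48) fell. In that fit 62.4% of all genes passed, 6.12% higher and 56.3% lower, since the scale itself was higher at Nut 1 h (the median of all genes was -0.65). Its errors were 0.16 to 0.17 for these genes, wider than on the TMM scale. The calls of MT-ATP6 and MT-ND5 were lost when any 1 library of Nut 1 h or Nut 10 h was left out, those of MT-ND1 and MT-ATP8 without either Nut 1 h library, and those of MT-CO2 and MT-ND3 without replicate 1 and replicate 2 of Nut 1 h, respectively. The calls of MT-RNR1, MT-RNR2 and MT-ND6 were kept under all 9 alternatives. After 10 h none of the 15 genes passed against Nut 0 h, with values from -0.10 to 0.21 and 0 of them at an unadjusted p under 0.05, while 32% of all genes were called, 5.66% higher and 26.3% lower. No tool but edgeR was run on this scale. At Nut 10 h against Nut 1 h, where 62.7% of all genes passed, 47.9% higher and 14.8% lower, 6 of the 15 rose and MT-ND6 fell.

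**Figure D4:**
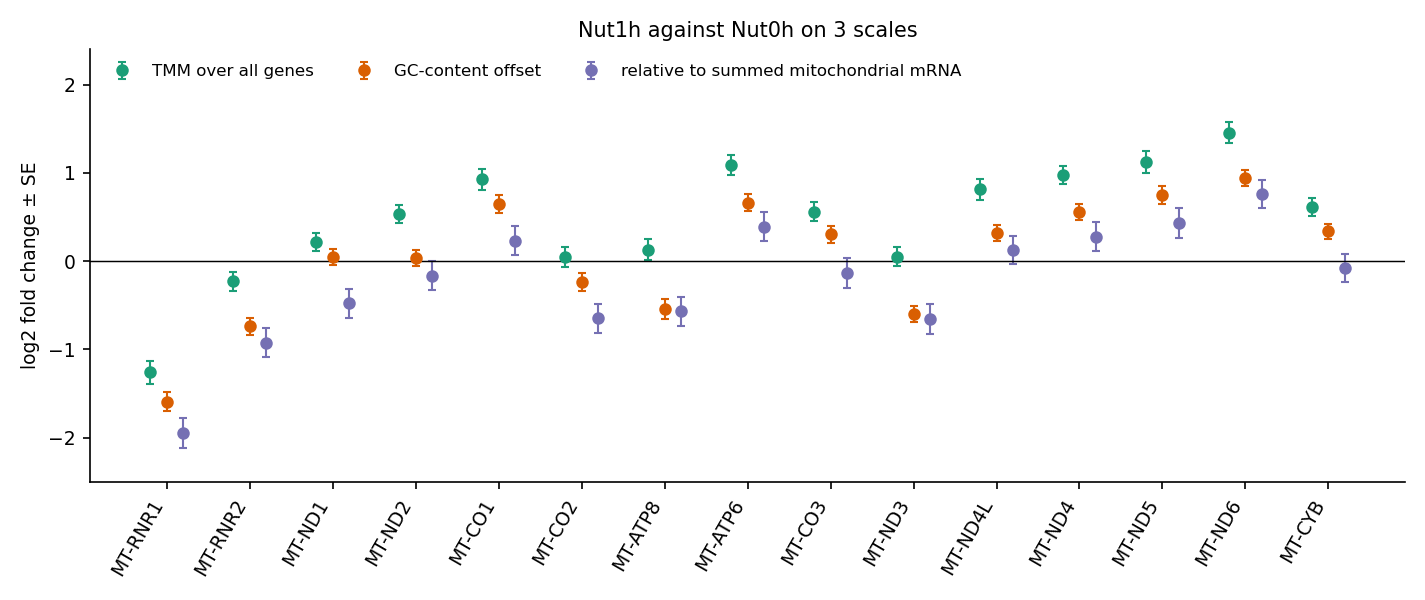
Log2 fold changes ± SE at Nut 1 h against Nut 0 h of the 15 mRNA and rRNA genes in genome order on 3 scales: TMM over all genes, the same with a GC-content offset, and relative to the summed mitochondrial mRNA. The zero line moves between scales, and only MT-RNR1 (lower) and MT-ATP6, MT-ND5 and MT-ND6 (higher) are called in the same direction on all 3.

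The tRNA genes are 59 to 75 bases long, and what share of the reads counted in them came from mature tRNA rather than from longer precursors was not measured. Of the 22 genes 10 reached the low-count level (0.286 CPM) in all 6 libraries. The others passed the filter through some libraries only, MT-TN, MT-TR and MT-TD through Nut 1 h alone. A gene that enters the test through the group where it is high had to differ, so genes are given singly, and 6 are given as a description with no p-value: MT-TN and MT-TR, MT-TA, which reached the level in vehicle and after 10 h alone, MT-TI and MT-TM, which had 1 library of Nut 1 h below it, and MT-TG, which had 1 library of Nut 0 h below it. For the same reason counts of called tRNA genes are descriptions. Counts spanned a wide range at Nut 0 h, from MT-TC (2898 normalized counts in replicate 1) to MT-TR, with 3 and 0 counts.

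**Figure D5:**
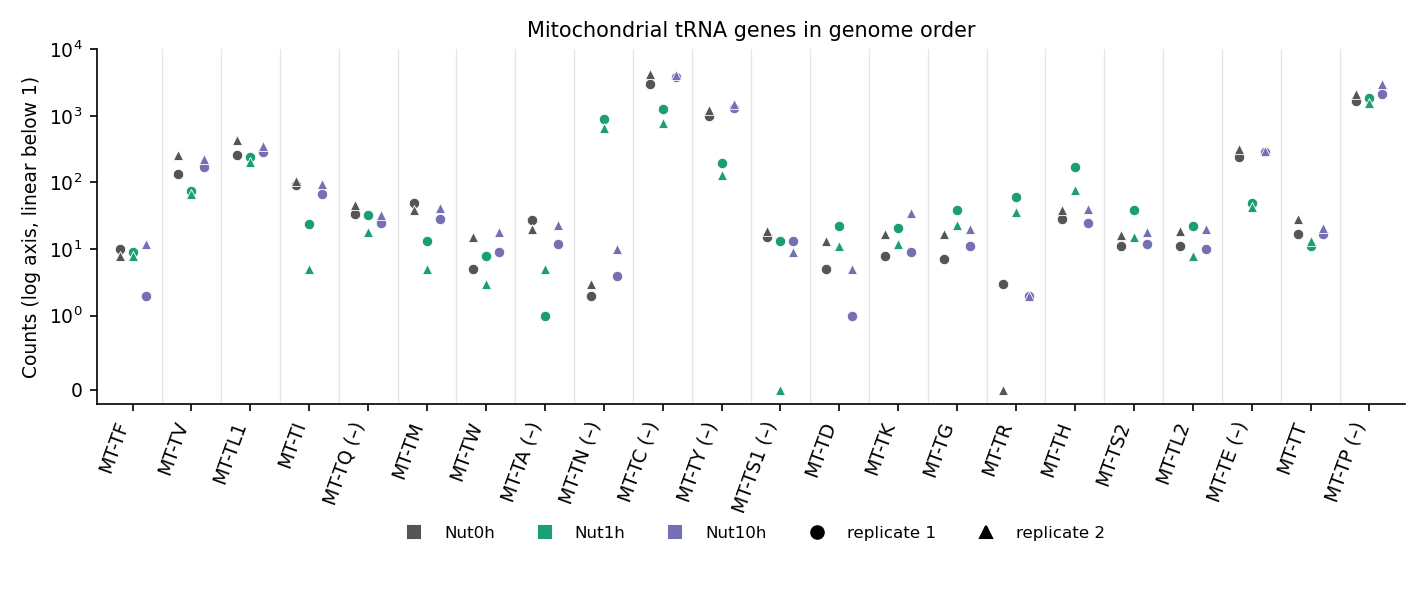
Counts of the 22 tRNA genes by library in genome order, on a log axis that is linear below 1; colours stand for the time points, circles and triangles for replicates 1 and 2, and (–) for the minus strand. MT-TN and MT-TR stand out at Nut 1 h, while MT-TC, MT-TY, MT-TA, MT-TE, MT-TI and MT-TM are lowest there.

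In the minus-strand cluster MT-TY and MT-TC fell at Nut 1 h, MT-TA was lower and MT-TN higher. MT-TY had counts of 998 and 1208 in vehicle, 198 and 131 after 1 h and 1295 and 1530 after 10 h. The Nut 1 h counts lay far below the rest, the log2 fold change being -2.52 ± 0.14 (SE, edgeR adjusted p = 2.21e-08), a 5.74-fold fall. MT-TC, the most abundant tRNA gene of these libraries at Nut 0 h, had counts of 2999 and 4202 in vehicle, 1268 and 789 after 1 h and 3799 and 4040 after 10 h. It fell by 1.59 ± 0.14 (SE, edgeR adjusted p = 6.27e-07), with no overlap between the groups. MT-TA had counts of 27 and 20 in vehicle, 1 and 5 after 1 h and 12 and 23 after 10 h. The fitted log2 fold change at Nut 1 h was -2.69 ± 0.64 (SE), and it ran from -4.33 without replicate 2 of Nut 1 h to -1.81 without replicate 1 of Nut 1 h. The ratio of its summed counts per normalized library size was 0.150 (95% counting interval 0.0523 to 0.351).

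MT-TN, which lies between MT-TA and MT-TC with 1 base to the former and 31 to the latter, had counts of 2 and 3 in vehicle, 894 and 658 after 1 h and 4 and 10 after 10 h and was singled out after its values were seen. It was almost absent from every library but those of Nut 1 h, where it outnumbered MT-TY. The ratio of summed counts at Nut 1 h to Nut 0 h was 364 (95% counting interval 156 to 1122), and the fitted log2 fold change was 8.43 ± 0.26 (SE). MT-TN had 0.0667 and 0.0714 counts per 100 of MT-TC in vehicle, 70.5 and 83.4 after 1 h and 0.105 and 0.248 after 10 h. The ratio of summed counts at Nut 10 h to Nut 0 h was 2.79 (0.949 to 9.89). The GC content of MT-TN, 41.1%, is close to that of MT-TA (43.5%), MT-TC (45.5%) and MT-TY (42.4%), and under the GC-content offset their values at Nut 1 h were 7.84, -3.15, -1.92 and -3.05 in that order. MT-TW (tryptophan), the plus-strand gene at the start of the cluster, had counts of 5 and 15 in vehicle, 8 and 3 after 1 h and 9 and 18 after 10 h and did not pass.

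The other minus-strand tRNA genes are scattered. MT-TE, just beyond MT-ND6, had counts of 239 and 321 in vehicle, 50 and 43 after 1 h and 286 and 296 after 10 h. It fell by 2.35 ± 0.19 (SE, edgeR adjusted p = 2.53e-07) at Nut 1 h, next to a gene of the same strand that rose, and at Nut 10 h its log2 fold change was 0.05 ± 0.15. MT-TP, the last gene before the control region, had counts of 1657 and 2105 in vehicle, 1841 and 1576 after 1 h and 2120 and 2970 after 10 h. It had 0.10 ± 0.14 (SE, edgeR adjusted p = 0.543) at Nut 1 h, and -0.86 (adjusted p = 8.07e-07) with the GC-content offset, its GC content being 33.8%. Relative to the mitochondrial mRNA MT-TP had -0.59 ± 0.15 (SE, edgeR adjusted p = 0.00131) at Nut 1 h. After 10 h MT-TP rose by 0.43 ± 0.14 (SE, edgeR adjusted p = 0.0288) and MT-TY by 0.35 ± 0.12 (SE, edgeR adjusted p = 0.0358), the only tRNA genes called then, and both calls were lost without replicate 1 of Nut 0 h, replicate 2 of Nut 10 h or either library of Nut 1 h. MT-TQ (glutamine, chrM:4329-4400) had counts of 34 and 46 in vehicle, 33 and 18 after 1 h and 25 and 33 after 10 h. MT-TS1 (serine, chrM:7446-7514) had counts of 15 and 19 in vehicle, 13 and 0 after 1 h and 13 and 9 after 10 h. Neither passed at Nut 1 h on the TMM scale. Relative to the mitochondrial mRNA, MT-TQ was called lower, with -1.12 ± 0.33 (SE, edgeR adjusted p = 0.00481). MT-TS1, which only Nut 0 h held at the low-count level in both libraries, had -1.85 ± 0.64 (SE) on that scale.

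Plus-strand tRNA genes were lower or higher at Nut 1 h. MT-TT (threonine, chrM:15888-15953), which lies after MT-CYB, had counts of 17 and 28 in vehicle, 11 and 13 after 1 h and 17 and 21 after 10 h, with values of -0.66 ± 0.42 (SE, edgeR adjusted p = 0.182) on the TMM scale, -1.41 (adjusted p = 0.0102) with the GC-content offset and -1.34 ± 0.43 (SE, edgeR adjusted p = 0.00901) relative to the mitochondrial mRNA. MT-TI (isoleucine, chrM:4263-4331) had counts of 91 and 107 in vehicle, 24 and 5 after 1 h and 66 and 94 after 10 h. The fitted log2 fold change at Nut 1 h was -2.55 ± 0.37 (SE), running from -3.87 without replicate 1 of Nut 1 h to -1.97 without replicate 2 of Nut 1 h, and the GC content is 29%. MT-TM (methionine, chrM:4402-4469) had counts of 49 and 38 in vehicle, 13 and 5 after 1 h and 28 and 42 after 10 h and a fitted value of -2.04 ± 0.41 (SE), from -2.69 to -1.67 without the same libraries. MT-TL1 (leucine, chrM:3230-3304), which follows MT-RNR2, had normalized counts of 250 and 405 in vehicle, 239 and 257 after 1 h and 275 and 332 after 10 h and a log2 fold change of -0.41 ± 0.19 (SE, edgeR adjusted p = 0.0743), with overlap between the groups. It was called lower with the GC-content offset (-1.12) and relative to the mitochondrial mRNA (-1.09), and leaving out 1 library moved it from -0.72 (without replicate 1 of Nut 0 h) to -0.03 (without replicate 2 of Nut 0 h).

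MT-TR (arginine, chrM:10405-10469) had counts of 3 and 0 in vehicle, 60 and 36 after 1 h and 2 and 2 after 10 h, and like MT-TN it was singled out after its values were seen. Its ratio of summed counts at Nut 1 h to Nut 0 h was 37.5 (95% counting interval 12.5 to 185). At 23.1% it has the lowest GC content of the members, and the fitted log2 fold change of 5.10 ± 0.61 (SE) became 3.60 with the GC-content offset. Leaving out 1 library moved it from 4.12 (without replicate 2 of Nut 0 h) to 8.72 (without replicate 1 of Nut 0 h, which leaves a group at 0 and a value set by the prior count). MT-TH (histidine, chrM:12138-12206), the gene after MT-ND4, had counts of 28 and 38 in vehicle, 173 and 77 after 1 h and 25 and 40 after 10 h. It rose by 2.12 ± 0.31 (SE, edgeR adjusted p = 3.40e-05), and by 1.27 with the GC-content offset. MT-TG (glycine, chrM:9991-10058) had counts of 7 and 17 in vehicle, 39 and 23 after 1 h and 11 and 20 after 10 h and a fitted value of 1.58 ± 0.44 (SE), and MT-TS2 (serine, chrM:12207-12265) had counts of 11 and 16 in vehicle, 39 and 15 after 1 h and 12 and 18 after 10 h and rose by 1.20 ± 0.44 (SE, edgeR adjusted p = 0.0265). For MT-TG and MT-TS2 the values were 0.23 and 0.89 with the GC-content offset, 1.09 and 0.96 without replicate 1 of Nut 0 h and 1.34 and 0.56 without replicate 1 of Nut 1 h, and MT-TS2 lost its call each time. Without replicate 2 of Nut 0 h MT-TG had 2.31. The remaining plus-strand tRNA genes, MT-TF, MT-TD, MT-TK and MT-TL2, had between 1 and 35 counts in each library and did not pass against Nut 0 h at either time.

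Parts of the mitochondrial genome also exist as copies in nuclear chromosomes. The first 2000000 bases of chromosome 1 were searched, and no other nuclear sequence was. There the GRCh37 sequence chr1:564461-570304 matched chrM:3911-9755 at 98.5% identity over 5846 aligned bases, with 83 mismatches and 2 gaps. It spans 16 members whole, 11 of them tRNA genes: MT-TQ, MT-TW, MT-TA, MT-TN, MT-TS1 and MT-TK are identical to the copy, MT-TM, MT-TC, MT-TY and MT-TD differ from it at 1 base and MT-TI at 2. MT-ND2 differed at 17 bases, MT-CO1 at 21, MT-CO2 at 14, MT-ATP8 at 5 and MT-ATP6 at 10. A read that falls within an identical tRNA gene has no unique place, and such reads cannot be told apart. MT-TV, MT-TE, MT-TP, MT-TR, MT-TG, MT-TH and MT-TS2, and MT-RNR1, MT-RNR2, MT-ND5 and MT-ND6, lie outside this copy. Some of these have other annotated nuclear copies, such as MTND6P4, MTND5P11 and MTND4P12, which follow each other on chromosome 5 (134259813 to 134263726) and were not aligned to the members.

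Genes annotated in nuclear copies were counted as well, and 4 of them are given, chosen after their values were seen. MTND2P28, the copy of MT-ND2 on chromosome 1, had counts of 2717 and 3128 in vehicle, 397 and 309 after 1 h and 3461 and 3696 after 10 h. It fell by 2.82 ± 0.10 (SE, edgeR adjusted p = 8.03e-10) at Nut 1 h, against the rise of 0.53 for MT-ND2 itself. MTATP6P1, the copy of MT-ATP6, had counts of 13486 and 16224 in vehicle, 27598 and 22525 after 1 h and 15458 and 16251 after 10 h and rose by 0.99 ± 0.10 (SE, edgeR adjusted p = 1.40e-06), close to the 1.08 of MT-ATP6. MTND1P23, a partial copy of MT-ND1, had counts of 6 and 13 in vehicle, 79 and 63 after 1 h and 13 and 14 after 10 h and rose by 3.11 ± 0.35 (SE, edgeR adjusted p = 3.39e-06). On chromosome 5, MTND5P11 had counts of 9 and 13 in vehicle, 93 and 45 after 1 h and 6 and 14 after 10 h and rose by 2.84 ± 0.40 (SE, edgeR adjusted p = 2.32e-05). Of 188 genes whose symbols begin with MTND, MTCO, MTATP, MTCYB, MTRNR2L or MTT (MTTP left out), 45 had counts. Together they held between 0.813% and 1.09% as many counts as the mitochondrial genes. Copies annotated under other symbols, or not annotated, are not in this sum. Whether reads passing between the copies and the members have a part in the tRNA values was not tested.

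Nuclear genes that transcribe, copy and package the mitochondrial genome or process its RNA, with nuclear regulators of mitochondrial content, were taken as a list of 72, of which 71 were tested. Of these, at Nut 1 h 36 rose and 21 fell (80.3% passed, against 66.9% of all genes, and median log2 fold change 0.36), and with the GC-content offset 16 rose and 21 fell (median -0.0016). After 10 h 6 rose and 16 fell (31% passed, against 29% of all genes), and 8 rose and 27 fell with the offset (49.3%, against 39.3%), and between Nut 1 h and Nut 10 h 18 rose and 38 fell (78.9%, against 67.9%). The shares of all genes, for reading the lists that follow, were 34.5% higher and 32.3% lower at Nut 1 h (20.5% and 24.9% with the GC-content offset) and 14.1% and 14.9% at Nut 10 h. In the list on mitochondrial transcription, 6 of 10 rose and 2 fell at Nut 1 h, and 3 rose and 4 fell with the GC-content offset. TFAM, which packages the genome and starts transcription, rose by 1.23 ± 0.09 (SE, edgeR adjusted p = 1.97e-07) (GC-content offset 0.38), and was -0.16 ± 0.09 at Nut 10 h. POLRMT, the polymerase, fell by 1.70 ± 0.14 (SE, edgeR adjusted p = 2.70e-07) (GC-content offset -0.34), and was -0.14 ± 0.13 at Nut 10 h. TFB2M had 0.56 ± 0.10 and the elongation factor TEFM 0.84 ± 0.12 at Nut 1 h, both called, and -0.04 and 0.04 with the offset. MTERF (MTERF1), which binds within MT-TL1 at the end of the rRNA genes, rose by 1.20 ± 0.13 (SE, edgeR adjusted p = 1.99e-06) at Nut 1 h, with 0.38 under the offset, and by 0.45 ± 0.13 at Nut 10 h.

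Of the 16 cleavage and tRNA maturation genes, 8 rose and 6 fell at Nut 1 h, where 66.9% of all genes passed, and 2 rose and 3 fell with the GC-content offset. TRNT1, which adds the CCA end to tRNAs, rose by 1.20 ± 0.12 (SE, edgeR adjusted p = 1.24e-06), and TRMT10C, a subunit of the RNase that cuts at the 5′ end of tRNAs, by 0.84 ± 0.09 (SE, edgeR adjusted p = 3.88e-06). Under the GC-content offset they had 0.48 and 0.13. PTCD1, a pentatricopeptide repeat protein, fell by 1.31 ± 0.14 (SE, edgeR adjusted p = 3.03e-06) (-0.71 with the offset), and PUS1, a pseudouridine synthase, had -0.71 ± 0.10 (SE, edgeR adjusted p = 3.30e-05) (0.03 with the offset). In the list on mRNA stability, 12 of 23 rose and 7 fell, against 34.5% and 32.3% of all genes, and 5 rose and 9 fell with the GC-content offset. PNPT1, a subunit of the mitochondrial degradosome, had 0.92 ± 0.09 and MTPAP, the mitochondrial poly(A) polymerase, 0.88 ± 0.11, while TBRG4 (-0.93 ± 0.09) and FASTK (-1.32 ± 0.11) fell. Under the offset they had 0.25, 0.30, -0.51 and -0.47 in that order. LRPPRC had 0.44 ± 0.10 (SE, edgeR adjusted p = 0.00101) (-0.31 with the offset) and SLIRP 0.14 ± 0.09 (SE, edgeR adjusted p = 0.189) (-0.55 with the offset), so LRPPRC turned from a rise to a fall with the offset.

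Among 14 genes for copying and packaging the genome, 7 rose and 3 fell at Nut 1 h (4 and 2 with the GC-content offset), and 1 rose and 4 fell at Nut 10 h (1 and 7 with the offset), where 66.9% and 29% of all genes passed, or 45.3% and 39.3% with the offset (17% higher and 22.4% lower at Nut 10 h). RRM2B, a p53 target that supplies deoxynucleotides for mitochondrial DNA, rose by 1.04 ± 0.12 (SE, edgeR adjusted p = 3.16e-06) at Nut 1 h (0.14 with the offset) and by 1.93 ± 0.12 (SE, edgeR adjusted p = 2.62e-08) at Nut 10 h. DNA2, a nuclease and helicase, and TOP3A, a topoisomerase, fell at Nut 10 h, with -1.06 ± 0.12 and -0.88 ± 0.09. Of 8 tested regulators of mitochondrial content, 3 rose and 3 fell at Nut 1 h, with GABPA at 0.98 ± 0.12 and ESRRA at -1.09 ± 0.13 as examples. With the GC-content offset 2 rose and 3 fell, and both examples lost their call (0.16 and 0.08). MYC fell at Nut 1 h, with -0.79 ± 0.11, and stayed called with the offset (-0.88). Only 1 of the 8 rose after 10 h, MYC at 0.37 ± 0.10, and 4 fell, against 14.1% and 14.9% of all genes, with NRF1 at -0.57 ± 0.11 and YY1 at -0.53 ± 0.10. The nuclear-encoded core partners of the respiratory complexes and the ATP synthase were also counted. At Nut 1 h 5 of 32 rose and 19 fell, where 32.3% of all genes were lower, and 2 rose and 21 fell with the GC-content offset, where 24.9% were lower, with ATP5D at -2.10 ± 0.16, COX8A at -1.73 ± 0.12 and, among those that rose, COX6C at 0.82 ± 0.10 as examples. With the offset these had -0.94, -1.09 and 0.16, the last no longer called. Of these 32, 0 rose and 3 fell after 10 h.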

How the data were processed

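RNA from HCT116 cells was sequenced in 6 libraries, 2 biological replicates for each of Nut 0 h, Nut 1 h and Nut 10 h. The authors deposited raw counts per gene. Per the labels, the submitters' processing notes name Trim Galore 0.6.6, STAR 2.7.0f and featureCounts (Subread 2.0.0), with GRCh37.p13. A deposited table of the authors' DESeq2 comparisons (fold changes and p-values) was used only to pair gene identifiers with symbols.

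Counts were tested with edgeR 4.0.16 (R 4.3.3) by the quasi-likelihood test, with TMM scaling, filterByExpr (at least 10 counts, 0.286 CPM), a term for the group, all 6 libraries in 1 fit (3 residual degrees of freedom) and Benjamini-Hochberg adjustment over the 16565 genes kept. Normalized counts are counts scaled to the mean TMM library size. The errors of fold changes, given as SE, were derived from the test. Each is the absolute log2 fold change divided by the square root of the F statistic of edgeR. A second fit used the summed count of the 13 mitochondrial mRNAs as offset. The GC-content offset was a loess fit per library (span 0.4) over the 97.4% of tested genes with a known GC content. Positions, lengths and sequences are those of GRCh37 with GENCODE gene models, and the first 2000000 bases of chromosome 1 were searched for nuclear copies with blastn. On counts simulated for Nut 1 h against Nut 0 h with 200 changed genes among 16565, edgeR recovered 77 of the genes changed 2-fold and 95 of those changed 4-fold, with 11 false calls. With a simulated GC trend added it made 10112 false calls, and 6 with the GC-content offset. The simulated trend was linear in GC content on the log2 scale, and every gene was given the same dispersion. The offset is built to remove such a trend, so the run does not show how it acts on the real counts.

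Members and lists were chosen with earlier results of these data known. Every mRNA and rRNA gene is given in every library. The tRNA genes given likewise are those at the low-count level in all libraries, while the others given by library (MT-TA, MT-TN, MT-TI, MT-TM, MT-TW, MT-TS1, MT-TG and MT-TR) were chosen after their values were seen. From the nuclear lists, the 2 largest rises and 2 largest falls per comparison among called genes could be named where the groups did not overlap and the mean was 100 normalized counts or more, besides POLRMT, TFAM, TFB2M, TEFM, LRPPRC, SLIRP, RRM2B and MTERF. Alternatives were other scalings (DESeq2 size factors, library totals, nuclear genes alone), no filter or a CPM of at least 1 in 2 libraries, DESeq2 1.42.0, only the 2 groups compared, an adjusted p of 0.01, the replicate number as a block, the GC-content offset with and without it, and leaving out each library.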

Additional observations from a re-analysis of the deposited data

Results flagged for a closer look

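The effects of 1 h and of 10 h of Nutlin-3a differed for members named here, by edgeR at an adjusted p of at most 0.05. The test was the direct comparison of Nut 10 h with Nut 1 h. The tRNA genes given below as descriptions are left out of this statement. Of the 15 mRNA and rRNA genes 66.7% passed, close to the 67.9% of all genes, so the share is not particular to them. Both effects are measured from the same Nut 0 h libraries, so the comparison of the treated groups is the test of their difference. Values are log2 fold changes, Nut 10 h over Nut 1 h. The rRNA genes were higher at Nut 10 h, MT-RNR1 by 1.52 and MT-RNR2 by 0.57. The mRNAs that differed were all lower: MT-ND6 -1.01, MT-CO1 -0.76, MT-ND5 -0.73, MT-ND4 -0.71, MT-ATP6 -0.70, MT-ND4L -0.56, MT-CO3 -0.42 and MT-CYB -0.38. With the GC-content offset the last 3 did not pass, and MT-ATP8 (0.94), MT-ND3 (0.81), MT-CO2 (0.37) and MT-ND2 (0.37), not called on the TMM scale, were called higher. MT-ND1 was called on neither.

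Higher tRNA genes were MT-TY 2.87, MT-TE 2.41, MT-TA 2.25, MT-TI 2.23, MT-TM 1.72, MT-TC 1.71, MT-TV 1.26 and MT-TP 0.33. MT-TN, MT-TR and MT-TD passed the low-count filter through Nut 1 h alone, where they are high, MT-TA through the other groups alone, and MT-TI, MT-TM and MT-TG had 1 library below the level in the group where they are low, or in vehicle for MT-TG, so their values are descriptions. Lower ones were MT-TN -7.00, MT-TR -4.72, MT-TD -2.63, MT-TH -2.15, MT-TG -1.22 and MT-TS2 -1.06. The calls of MT-CO3, MT-ND4L, MT-CYB, MT-TS2 and MT-TP were lost under at least 1 of the alternatives tried. For the tRNA genes given as descriptions no call is read, so none is listed as kept or lost.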

How the results depend on the processing

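At Nut 1 h against Nut 0 h, the mRNA and rRNA genes called kept their call under all 17 alternatives, except MT-ND2, and the tRNA gene MT-TS2 lost its call under some. At Nut 10 h against Nut 0 h no call was kept under all of them. Counts of tRNA genes are descriptions, since some genes passed the filter through 1 group only. With the GC-content offset, signs turned for members whose new value or old value was called. These were MT-ATP8 (-0.55), MT-ND3 (-0.60) and MT-TP (-0.86) at Nut 1 h, and MT-ND2 (0.37) at Nut 10 h against Nut 1 h. In the latter comparison the sign of MT-TG, given as a description, turned too (0.10, and 0.052 with the replicate block). Signs also turned for members called neither way, MT-CO2, MT-TD, MT-TF, MT-TK and MT-TL2 at Nut 1 h and MT-ND1, MT-TF and MT-TL2 at Nut 10 h against Nut 1 h. The cause of these changes was not tested. At Nut 1 h the mRNA and rRNA genes called lower were 1, against 2 with no filter, DESeq2 or the 2 groups alone and 4 with the GC-content offset, and the higher tRNA genes were 5, against 3 with a CPM of at least 1 (fewer genes tested) or the GC-content offset. Of the list of nuclear genes for the mitochondrial genome, its RNA and mitochondrial content, 36 were higher at Nut 1 h, against 16 with the GC-content offset and 15 with the replicate block added, and 16 were lower at Nut 10 h, against 27 and 25, or 9 at an adjusted p of 0.01, where 3 rather than 6 were higher. At that threshold 2 rather than 6 mRNA and rRNA genes and 0 rather than 2 tRNA genes were higher at Nut 10 h, and 1 tRNA gene with DESeq2 or the 2 groups alone. Shares of all genes under these other settings are not given here, so such counts show only how the settings move them. Between Nut 1 h and Nut 10 h the GC-content offset gave 6 rather than 2 higher and 5 rather than 8 lower mRNA and rRNA genes, and 3 rather than 6 lower tRNA genes, as did a CPM of at least 1. With all mitochondrial genes in place of the mRNAs as the scale, 5 rather than 3 were higher at Nut 1 h and 5 rather than 1 lower at Nut 10 h against Nut 1 h. The calls of MT-ND1 and MT-ATP8 as lower at Nut 1 h were lost on that scale. So were those of MT-ND1 and MT-CO2 as higher at Nut 10 h against Nut 1 h. Without rRNA genes the mitochondrial share was 4.48%, 7.49% and 5.38%.

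Leaving out 1 library at a time, the lone library of a group being assumed to vary like the others, gave the following ranges. Shares of all genes in these fits are not given here, so the ranges show only how single libraries move the counts. They are not read as results about the members. At Nut 1 h there were 9 to 10 higher and 1 to 2 lower mRNA and rRNA genes, 3 to 5 higher and 7 to 8 lower tRNA genes, and 1 to 3 higher and 3 to 6 lower on the mitochondrial mRNA scale. At Nut 10 h there were 0 to 9 higher mRNA and rRNA genes (0 without replicate 1 of Nut 0 h), 0 to 4 higher tRNA genes, and 3 to 5 higher and 9 to 15 lower genes of that nuclear list. At Nut 10 h against Nut 1 h there were 2 to 3 higher and 6 to 8 lower mRNA and rRNA genes, 3 to 6 lower tRNA genes (3 without replicate 1 of Nut 1 h), and 0 to 2 lower on the mitochondrial mRNA scale. Across genes, the deviations of the replicates correlated between Nut 0 h and Nut 1 h with r = -0.31. The values were 0.45 between Nut 0 h and Nut 10 h and -0.28 between Nut 1 h and Nut 10 h. These signs differ, so the values do not settle whether the replicate numbers pair the samples. With the replicate block 9 mRNA and rRNA genes were higher and 1 lower at Nut 1 h, and 8 rather than 7 tRNA genes were lower. The call of MT-TL1 at Nut 1 h was gained with the block (-0.37), and those of MT-TS2 at Nut 10 h against Nut 1 h (-1.04) and, on the mitochondrial mRNA scale, of MT-ATP6 at Nut 1 h and MT-ND1 at Nut 10 h against Nut 1 h were lost. At Nut 1 h the SE was 0.42 for the tRNA gene MT-TT, with 11 to 28 counts per library, and 0.14 for MT-TY, with 131 to 1530. It was also 0.14 for MT-TP, with 1576 to 2970. Depth was not compared with other limits of the tRNA genes.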
